A study of Mus musculus with 38 samples.

Results

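The data described here are the BMP4 arm of a bulk RNA-seq time course of JGES reprogramming, in which mouse embryonic fibroblasts (MEFs) were infected with retroviruses for *Jdp2*, *Glis1*, *Esrrb* and *Sall4*. The samples were taken by their labels, with no measured value in the rule. They are the day 0 library and the BMP4 libraries of days 1, 3, 5 and 7, which makes 5 of the 38 samples of the series, with 1 library per day. The MEFs came from E13.5 embryos of *Oct4*-GFP (OG2) transgenic males crossed with 129S4/SvJaeJ females, of either sex, with head, limbs, tail and organs removed. By the protocol the virus for all 4 factors was given for 2 days before day 0, so day 0 is infected fibroblasts and not plain MEFs, although a high level was seen for *Jdp2*, *Esrrb* and *Sall4* and not for *Glis1*. During infection the cells were in medium with fetal bovine serum, polybrene and the ROCK inhibitor Y27632. From day 0 on they grew in iCD3 medium with vitamin C, mLIF, bFGF, the GSK3 inhibitor CHIR99021, the DOT1L inhibitor SGC0946, an LSD1 inhibitor and Y27632. The BMP4 samples also received BMP4 at 10 ng/ml. Cells in iCD3 without BMP4 were sampled on the same days, and that course shares the day 0 library. By the protocol each difference from day 0 is thus also one between serum medium and iCD3. These are whole dishes of mixed cells, in which fewer cells of a type and less RNA per cell cannot be told apart.

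BMP4 is a secreted signal of the TGF-β superfamily that binds type I and type II receptors, which phosphorylate SMAD1, SMAD5 and SMAD9. These enter the nucleus with SMAD4 and switch on targets such as the *Id* genes, and inhibitors such as *Smad6*, *Smad7* and *Bambi* feed back on the signal. In the embryo BMP4 acts in gastrulation, in the extra-embryonic tissues, and in bone, skin and vessel formation. Fibroblasts are mesenchymal cells that carry actin and myosin fibers and secrete collagen. The order in which such genes were lost and genes of other lineages were gained was followed here across all genes.

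Levels are FPKM (fragment counts corrected for transcript length and library size), and 5 values in a row stand for days 0, 1, 3, 5 and 7 with BMP4. Differences are of log2(FPKM + 1). A gene is said to have risen or fallen when this difference was at least 1, which is 2-fold on that scale. With 1 library per day there is no replicate error, so no test was made, and a difference compares 2 libraries and not 2 days. The number of reads behind a value is unknown. All 4 differences from day 0 share that day's library and are not independent of each other. Counts over all genes were taken over 13452 of 35976 genes, those with a mean of at least 1 FPKM over the 5 libraries. The median ratio of each later library to day 0 was between 0.998 and 1.02, the median difference over all counted genes was between 0.02 and 0.05 at the 4 later days, and *Tbp*, a general transcription factor, stayed between 13.3 and 15.5 FPKM. *Actb*, the cytoplasmic actin often used as a reference, was no such constant and measured 1758, 589, 514, 448 and 483 FPKM. *Gapdh* measured 213, 301, 243, 298 and 348 FPKM and *Hprt* measured 39.1, 56.5, 41.0, 55.7 and 52.0 FPKM, both lowest at day 0.

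Of the delivered factors, *Sall4*, *Esrrb* and *Jdp2* were already high at day 0. *Sall4*, which codes for a zinc finger factor that recruits the NuRD complex, measured 650.4, 468, 459.9, 266 and 194 FPKM. *Esrrb*, an orphan nuclear receptor of the pluripotency network, measured 240.4, 348, 312, 173 and 128 FPKM. *Jdp2*, a dimerization partner of Jun proteins, measured 375, 762, 652, 329 and 259 FPKM. Only *Sall4* had fallen by day 7, by 1.74 on the log2 scale, and *Jdp2* had risen at day 1 alone. *Glis1* stayed between 0.287 and 1.13 FPKM in all 5 libraries, so the values do not show its delivery, and the sources used here do not say whether the *Glis1* sequence in the virus would be counted as the mouse gene. Transcripts of the virus and of the cell's own gene cannot be told apart in these values.

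Changes were already numerous after the first day. At day 1, 1166 genes had risen (8.67% of the genes counted) and 1044 had fallen (7.76%). At day 3 it was 1631 (12.1%) and 1187 (8.82%), at day 5 1761 (13.1%) and 1176 (8.74%), and at day 7 2012 (15.0%) and 1169 (8.69%). The number of fallen genes thus stayed close to that of day 1, and the number of risen genes was higher at each day than at the one before. With a mean of at least 5 FPKM the risen genes numbered 905 at day 3 and 898 at day 5, so the gain between these days was not seen there. From one library to the next the counts were lower. Between day 1 and day 3, 931 genes rose (6.92%) and 582 fell (4.33%). Between day 3 and day 5, 585 rose (4.35%) and 380 fell (2.82%). Between day 5 and day 7, 648 rose (4.82%) and 429 fell (3.19%), so the last step had slightly more changes than the one before. These shares are the background for each list count that follows, although list counts also include members with a mean under 1 FPKM.

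A similar number of fallen genes at each day does not mean that the genes were the same. Of the 1044 genes that were lower at day 1, 487 were still called lower at day 7, 514 were no longer called, and 43 had risen above day 0. Of the 1166 higher genes, 683 were still called higher at day 7, 461 were no longer called and 22 had fallen. The day from which a change was held was therefore taken as the first day at which a gene was called and remained called the same way at every later day. Of the genes higher at day 7, 532 (3.95% of all genes counted) were held from day 1, 430 (3.20%) from day 3 and 387 (2.88%) from day 5, and 663 (4.93%) were called at day 7 first or again. Of the genes lower at day 7, the numbers were 368 (2.74%), 204 (1.52%), 187 (1.39%) and 410 (3.05%), so that 26.4% of the risen and 31.5% of the fallen genes of day 7 had kept their change since day 1. Another 1923 genes (14.3% of those counted) were called at an earlier day and not at day 7, and 8348 (62.1%) were not called at any day.

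**Figure D1:**
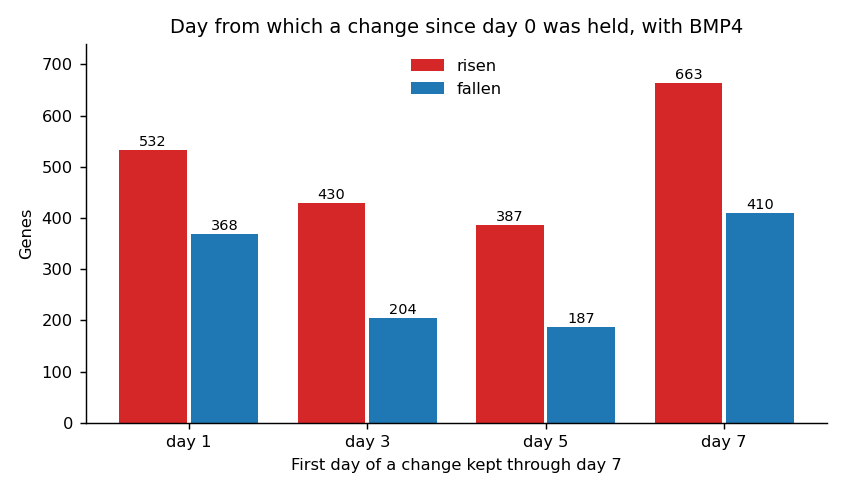
Number of genes (y axis) by the first day of a change from day 0 that was kept at every later day through day 7 (x axis), for risen (red) and fallen (blue) genes of the BMP4 course, with 1 library per day. Day 1 and day 7 hold more genes than the days between, with 532 and 663 risen and 368 and 410 fallen.

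The contractile program fell within a day, between a day 0 library from serum medium and a day 1 library from iCD3. All 11 genes of this list (beside 8.69% of all genes counted), which code for smooth muscle actins, calponins, myosin light chain, tropomyosins and their partners, were lower at day 7, and 10 of them had fallen by day 1 and remained so. The list median was -3.22, -3.44, -3.59 and -3.39 at days 1, 3, 5 and 7. *Acta2* (smooth muscle α-actin) measured 983, 22.8, 29, 14.4 and 13.4 FPKM. *Tagln* (transgelin) measured 1228, 69.5, 70.0, 46 and 28.3 FPKM, and *Cnn1* (calponin) measured 158, 3.33, 4.93, 3.49 and 1.5 FPKM. In each of them the day 0 library stood far above the other 4, and most of the log2 fall was present at day 1, although all 3 measured less again at day 7. Over all ranked genes, *Acta2* was the largest fall against day 0 at days 1, 5 and 7. *Myl9*, a regulatory myosin light chain, measured 393, 19.8, 10.1, 14.4 and 16.9 FPKM and was the largest fall at day 3. *Acta1*, the skeletal muscle actin, was not on the list, measured 34.8 FPKM at day 0, 2.27 at day 3 and 1.34 at day 7, and was listed at 0 at days 1 and 5. The exception in time was *Mylk*, the kinase of myosin light chain, with 8.71, 12.2, 4.22, 3.79 and 2.56 FPKM, which had its highest value at day 1 and was called lower from day 5.

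Genes of this list are known targets of serum response factor, which binds the CArG box. As the list moved together, the 250 bases before the RefSeq transcription start were searched on both strands in the 9 list members with an entry (build GRCm38.p6). The CArG box was found in 2 of them, against 1.62% of 27018 genes with such a sequence, and both are printed here with the box in capitals. The sequence of *Cnn2* is chr10:79988350-79988599 (plus strand), with the box starting 56 bases before the start site. That of *Myl9* is chr2:156775214-156775463 (plus strand), with the box starting 161 bases before the end of the window. The RefSeq span of the *Myl9* gene starts at 156775408, inside this window, so the box lies closer to that start.
Cnn2: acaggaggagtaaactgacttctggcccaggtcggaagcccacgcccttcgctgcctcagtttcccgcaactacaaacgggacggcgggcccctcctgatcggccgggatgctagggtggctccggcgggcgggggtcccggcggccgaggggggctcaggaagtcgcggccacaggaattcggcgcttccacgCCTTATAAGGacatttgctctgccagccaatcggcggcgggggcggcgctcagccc
Myl9: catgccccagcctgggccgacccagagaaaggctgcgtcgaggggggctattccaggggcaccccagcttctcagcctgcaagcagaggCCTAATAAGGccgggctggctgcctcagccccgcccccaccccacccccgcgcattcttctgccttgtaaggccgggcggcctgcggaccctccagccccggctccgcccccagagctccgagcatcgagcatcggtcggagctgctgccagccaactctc
A match of letters describes this window and is not a bound site. *Cnn2* (calponin 2) measured 404, 85.8, 67.9, 53.7 and 79.7 FPKM. For the signalling lists described further on, the letters GGCGCC (bound by SMAD proteins in BMP targets) were searched in the same windows. They were found for 3 of 8 BMP target genes with an entry (*Id2*, *Id4* and *Smad9*), against 10.8% of all genes. In *Smad9* they start 51 bases before the end of the window at 54755581. The RefSeq span of that gene starts at 54755455, so by these positions they lie inside it and not before it. The letters CTTTGAT (bound by TCF and LEF factors) were found before 1 of 7 WNT target genes (*Sp5*), against 3.72% of all genes. None of these counts was tested.

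The collagen matrix also fell by day 1, and some of it returned. Of 18 matrix genes, 12, 13, 14 and 10 were lower at days 1, 3, 5 and 7, and the list median was -1.39, -1.88, -1.93 and -1.36. Between day 5 and day 7, 5 members rose and none fell. *Col1a1*, a chain of type I collagen, measured 524, 67.8, 111, 168 and 361 FPKM and at day 7 was no longer called lower. *Col6a1*, a chain of type VI collagen, measured 132, 31.4, 10.9, 11.3 and 40.2 FPKM and also dipped in the middle of the course. *Lox*, the enzyme that crosslinks collagen, measured 90.8, 1.77, 3.04, 1.27 and 5.69 FPKM and did not come back to the same extent. *Fbln2* (fibulin 2) measured 276, 136, 29, 18.4 and 32.8 FPKM, a slower fall that was still going on between days 1 and 3. Among the 18 genes, 9 were held lower from day 1 and 1 from day 3 (*Loxl1*).

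The matrix genes that went the other way were *Postn*, *Dcn* and, at day 3 alone, *Lum*. *Postn* (periostin, which binds collagen and is typical of periosteum and ligament) measured 56.7, 61.9, 90.4, 219 and 321 FPKM and was higher from day 5. *Dcn* (decorin, a small proteoglycan) measured 1.12, 0.665, 4.58, 4.98 and 7.0 FPKM and was higher from day 3. *Lum* (lumican, a relative of decorin) measured 0.485, 0.674, 2.41, 1.68 and 1.35 FPKM. *Fn1* (fibronectin) measured 708, 532, 422, 429.9 and 596 FPKM and was not called at any day.

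Of 12 surface proteins of fibroblasts, 3 were lower at day 1, 7 at days 3 and 5, and 5 at day 7, and none was higher at any day. Of all genes, 7.76%, 8.82%, 8.74% and 8.69% were lower at these days. *Cd248* (endosialin) measured 271, 40.9, 17, 22.6 and 21.4 FPKM, an early fall. *Thy1*, a classic fibroblast antigen, measured 73.5, 71, 24.7, 26.8 and 34.4 FPKM, with a day 1 level close to day 0 and a fall by day 3. *Pdgfra*, the receptor used to mark mesenchymal cells, measured 30.3, 44.5, 29.3, 30.2 and 36 FPKM and was not called. *Cdh11*, the mesenchymal cadherin, measured 53.6, 40.4, 29.3, 32.4 and 15.7 FPKM and was called at day 7 alone.

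The transcription factors of mesenchymal cells split. Of 16, 6 were lower at each of the 4 days and none was higher, beside 7.76%, 8.82%, 8.74% and 8.69% of all genes lower. The list median was -0.82, -0.54, -0.75 and -0.48. *Osr1*, a factor of embryonic connective tissue, measured 54.8, 7.3, 10.6, 5.04 and 2.27 FPKM. *Foxd1*, of stromal cells, measured 20.5, 1.28, 1.45, 0.568 and 0.285 FPKM. *Twist2* measured 43, 29.3, 3.74, 6.02 and 3.42 FPKM. These fell within the first days and did not return. *Twist1*, its close relative, measured 42, 32, 38.8, 45.9 and 46.9 FPKM, and *Snai1*, a repressor of *Cdh1* and a driver of epithelial-mesenchymal transition, measured 53, 63.9, 52, 62.1 and 70.6 FPKM. Neither was called at any day. *Snai2* measured 28.7, 11.6, 25, 24.3 and 32.9 FPKM and *Prrx2* measured 63, 24.5, 41.2, 41.3 and 47.4 FPKM, so each was lower at day 1 and no longer called from day 3, with *Prrx2* still under its first level. Of the 8 AP-1 genes, which code for the Fos and Jun factors, 1, 3, 4 and 1 were lower at days 1, 3, 5 and 7, and none was higher. Beside the same shares of all genes, the count of 1 at days 1 and 7 is near the background. *Fos*, *Fosl1* and *Fosl2* were lower at earlier days only. *Junb* alone was lower at day 7, with 240.0, 246, 107, 90.6 and 93.1 FPKM.

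HOX genes, which carry the memory of position along the body axis, fell gradually. Of the 13 genes listed, 3, 5, 9 and 11 were lower at days 1, 3, 5 and 7, and the list median went from -0.53 to -0.81, -1.56 and -2.12. Unlike the contractile list, they had no common day. Lower levels were held from day 1 in 2 genes, from day 3 in 3, from day 5 in 4 and from day 7 in 2. *Hoxa5* measured 33.6, 7.45, 3.99 and 2.79 FPKM at days 0 to 5 and was listed at 0 at day 7, the only member listed at 0 in any library. *Hoxc8* measured 33.3, 14, 8.89, 3.83 and 2.07 FPKM and *Hoxc10* measured 30.9, 18.5, 17.2, 8.76 and 5.5 FPKM, both lower at each library than at the one before. *Hoxb7*, with 5.03, 6.06, 8.44, 2.75 and 5.53 FPKM, was not called.

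**Figure D2:**
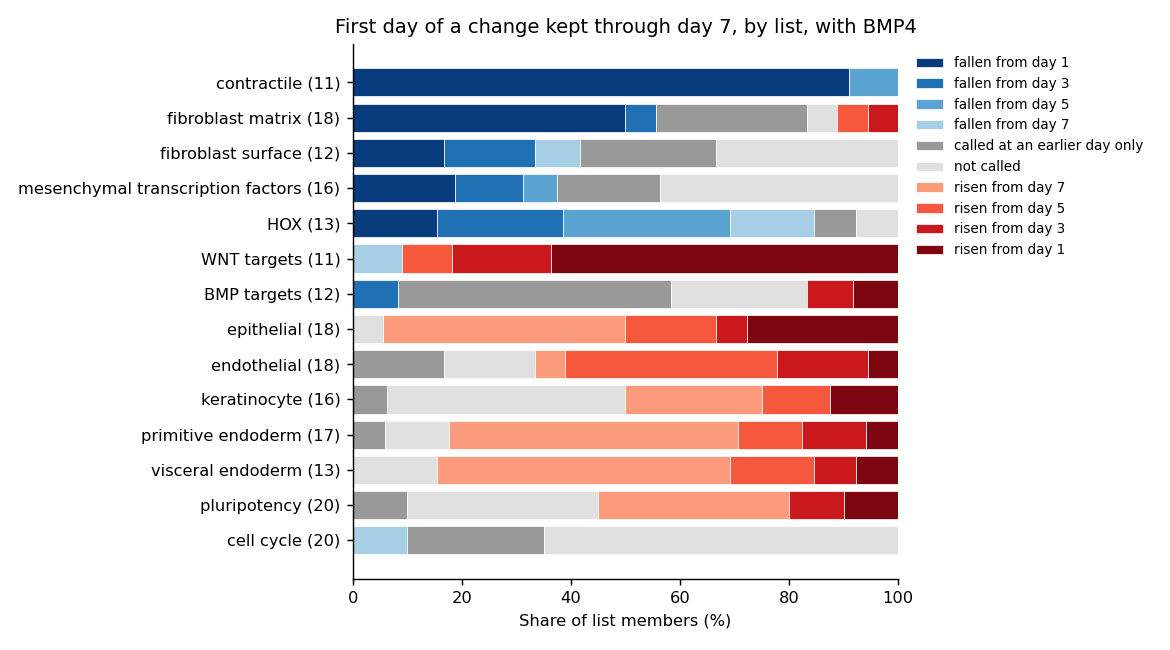
Share of the members of each gene list (x axis, percent, number of measured members in brackets) by the first day of a change from day 0 kept through day 7 with BMP4. Blue is lower, red is higher, darker shades are earlier days, and grey is no change at day 7. The contractile list is almost wholly dark blue (10 of 11 from day 1), the HOX list is spread over all days, and the endoderm lists are mostly pale red, which is day 7.

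Several BMP targets were higher at days 1 to 5. Of 12 targets, 6 were higher at day 1 and at day 3, 5 at day 5 and 2 at day 7, beside 8.67%, 12.1%, 13.1% and 15.0% of all genes, so the share at day 7 was near that of all genes. The list median was 0.84, 0.95, 0.80 and 0.56. *Id1*, an inhibitor of basic helix-loop-helix factors and the most direct of these targets, measured 135, 293, 233, 243 and 239.7 FPKM. *Id2* measured 33.8, 109, 119, 91.2 and 68.4 FPKM. Both were at their highest by day 1 or 3. *Id1* was called over day 0 at day 1 alone, and *Id2* at days 1, 3 and 5, with a day 7 difference of 0.996, just under the call. *Id3*, *Smad6* and *Smad7* were not called at any day. *Bambi*, a pseudoreceptor that dampens the signal, measured 3.73, 18.2, 38.9, 51.7 and 38.8 FPKM, with its highest level at day 5. *Msx2*, a homeobox factor of bone and limb, measured 3.26, 4.69, 25.9, 39.4 and 47.4 FPKM, higher at each library than at the one before. *Nog* (noggin, which binds and blocks BMPs) measured 3.84, 12.4, 2.41, 2.18 and 1.83 FPKM, above day 0 at day 1 alone. *Atoh8* went the other way, with 29.4, 20.2, 11.4, 8.13 and 6.89 FPKM.

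In the pathway itself, *Bmpr1a* and *Bmpr2*, the main receptors, measured 20.0, 17.7, 19.6, 18.3 and 18.9 FPKM and 14.3, 12.4, 14.1, 14.4 and 12 FPKM and were not called. *Bmp4* measured 82.3, 29.7, 33.5, 29.8 and 31.4 FPKM, so the cells' own transcript was highest before the protein was added. *Bmp7* measured 5.76, 1.62, 4.38, 21.7 and 21.5 FPKM and was higher from day 5. *Chrd* (chordin, a BMP antagonist) measured 1.13, 1.66, 6.08, 5.07 and 5.98 FPKM and was higher from day 3. Of the 16 pathway genes, 4 were higher and 4 lower at day 7, beside 15.0% and 8.69% of all genes, and the list median was -0.19.

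WNT targets rose at once and stayed up. CHIR99021 in the medium blocks GSK3 and thereby stabilizes β-catenin, and it was in the medium of all samples after day 0. Of 11 targets, 8 were higher at day 1, 9 at day 3 and 10 at days 5 and 7, and the list median was 1.48, 1.75, 1.66 and 1.70. *Axin2*, the negative regulator that is the usual readout of this signal, measured 2.13, 20.1, 23, 28.2 and 24.1 FPKM. *Nkd1*, another feedback inhibitor, measured 5.57, 44.2, 21.1, 19 and 19 FPKM and was highest at day 1. *Sp5*, a factor of the early embryo, measured 0.16, 16.3, 3.06, 2.67 and 4.68 FPKM, also highest at day 1. *Notum*, an enzyme that inactivates WNT proteins, measured 0.342, 6.76, 20.0, 28.7 and 19 FPKM. In all 4 the day 0 library was the lowest. *Dkk1*, a secreted WNT inhibitor, measured 2.99, 8.57, 39.1, 72.5 and 73.5 FPKM, with most of its gain by day 5. *Ccnd1* (cyclin D1) was the exception, with 153, 222, 173, 133 and 69.6 FPKM, and was lower at day 7.

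Several genes of mineralized bone were higher at day 7. *Alpl* (tissue-nonspecific alkaline phosphatase, found in osteoblasts and in pluripotent cells) measured 1.02, 3.28, 7.19, 43 and 133 FPKM, more in each library than in the one before. *Spp1* (osteopontin) measured 20.5, 154, 87.8, 121 and 352 FPKM, and *Sp7* (osterix, the osteoblast factor) measured 1.33, 8.2, 5.54, 8.09 and 12.9 FPKM. *Ibsp* (bone sialoprotein) was listed at 0 at days 0 and 1 and measured 1.28, 8.40 and 33.4 FPKM at days 3, 5 and 7. *Dmp1*, of osteocytes, was listed at 0 until day 3 and measured 1.79 and 4.05 FPKM at days 5 and 7. *Spp1* and *Sp7* measured less at day 3 than at day 1. *Bglap* (osteocalcin, a bone matrix protein) went the other way, with 2.80, 0.730, 1.49 and 1.46 FPKM at days 0 to 5, and was listed at 0 at day 7. The cartilage genes of the same list were not higher at day 7 either. *Col2a1* measured 24.3, 11.7, 13.6, 9.88 and 5.26 FPKM and *Acan* measured 1.17 FPKM at day 0, was listed at 0 at day 3 and stayed at or under 0.271 FPKM at the other days, both lower at day 7, and *Sox9* measured 8.18, 12.9, 17.8, 14.5 and 8.63 FPKM. The 11 genes of the list thus included 5 that were higher and 3 that were lower at day 7.

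**Figure D3:**
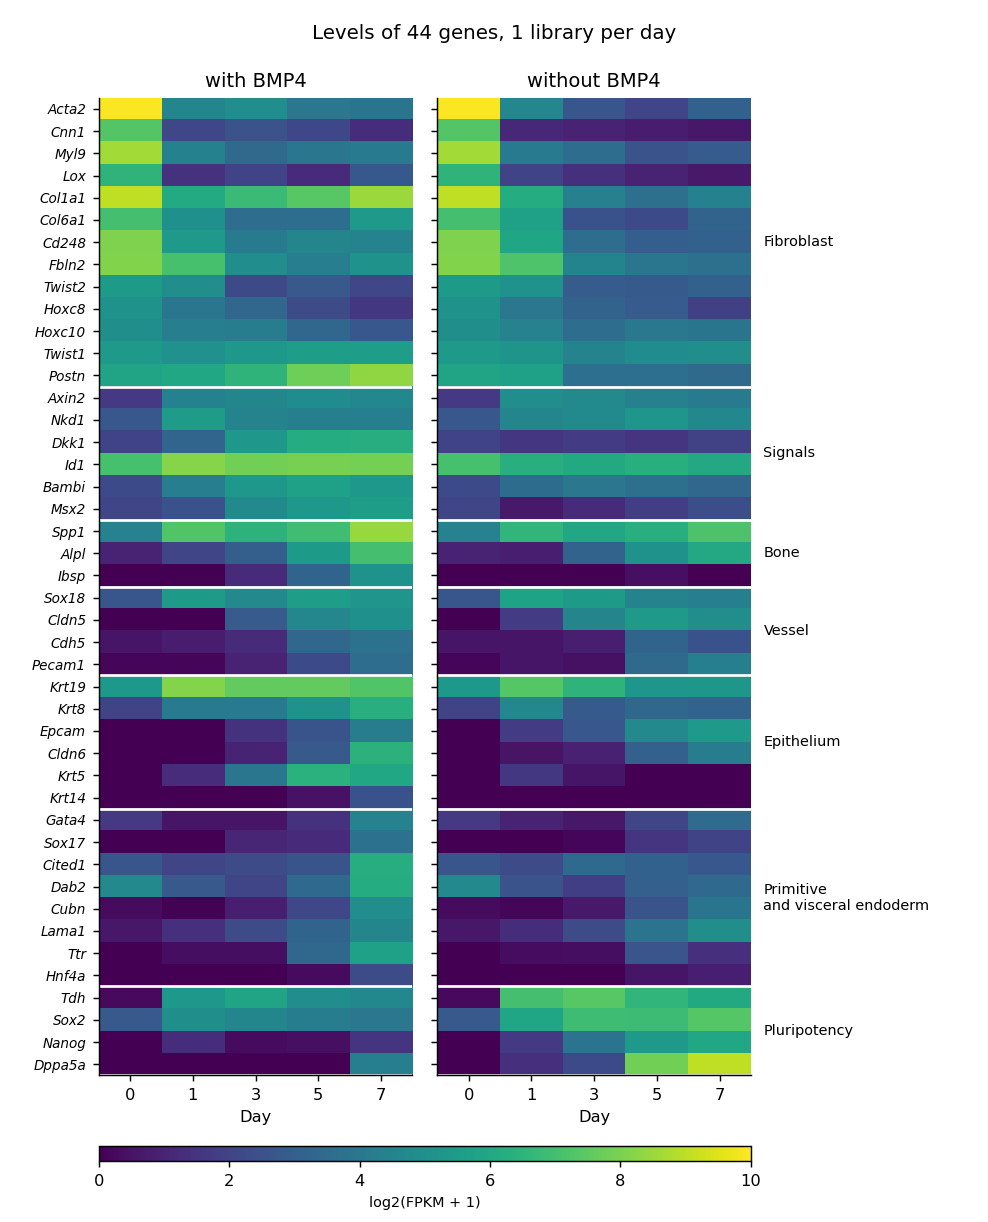
Level of 44 list members (rows) as log2(FPKM + 1), from 0 (dark) to 10 (yellow), by day (columns), with BMP4 on the left and without on the right, 1 library per day and the same day 0 library in both. The contractile genes at the top darken at day 1, the WNT targets brighten at day 1, and *Cited1*, *Dab2* and *Gata4* brighten at day 7 with BMP4.

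Epithelial genes rose in part at day 1 and in part at day 7. Of the 18 genes listed, 6, 7, 9 and 17 were higher at days 1, 3, 5 and 7, and the list median was 0.47, 0.85, 1.09 and 1.87. The keratins of this list were among the first. *Krt7*, a keratin on the placenta list, went the other way and was lower at days 1, 3 and 5. It measured 8.26, 1.32, 1.58, 2.64 and 4.87 FPKM. *Krt19* measured 39.4, 281, 194, 190.5 and 154 FPKM, highest at day 1. *Krt8* measured 3.16, 16.5, 17, 33.3 and 75.6 FPKM and *Krt18*, its partner in the filament, measured 18.2, 58.7, 78.3, 88.1 and 148 FPKM, both highest at day 7. *Spint2*, a membrane protease inhibitor, measured 2.12, 12.4, 27.7, 33.5 and 54.7 FPKM. *Krt19*, *Krt8*, *Krt18*, *Spint2* and *Cldn4* make up the 5 members held from day 1. Among junction genes, *Cldn4* (claudin 4) measured 0.741, 8.69, 9.26, 25.8 and 87.7 FPKM, with gains at day 1 and again after day 3, and the others named here were called later. *Cldn6*, a claudin of embryonic epithelium, was listed at 0 at days 0 and 1 and measured 0.937, 5.97 and 85.5 FPKM at days 3, 5 and 7. Both *Cldn* genes were highest at day 7. *Epcam* was listed at 0 at the same days and measured 1.73, 5.09 and 18.0 FPKM later. *Cdh1* (E-cadherin) measured 10.8, 15.5, 12.9, 20.9 and 27.6 FPKM and was called at day 7 alone. The epithelial splicing and transcription factors *Esrp1*, *Grhl2*, *Ovol1* and *Ovol2* were all listed at 0 at day 0 and reached between 1.29 and 2.45 FPKM at day 7.

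Some keratins of stratified epithelium appeared as well. *Krt5*, of basal keratinocytes, was listed at 0 at day 0 and measured 1.44, 14.2, 83.6 and 63.0 FPKM at days 1, 3, 5 and 7. Its partner *Krt14* was listed at 0 through day 3 and measured 0.406 and 4.69 FPKM at days 5 and 7, and *Krt6a* was listed at 0 through day 3 and measured 1.08 and 3.57 FPKM. *Krt15* was present at day 0, with 1.95, 11.6, 9.54, 5.48 and 2.65 FPKM, and was not called at day 7. *Krt17* stayed at or under 0.452 FPKM and was not called at any day. *Trp63*, the master factor of this lineage, stayed at or under 0.861 FPKM in all libraries. In all, 8 of 16 keratinocyte genes were higher at day 7, beside 15.0% of all genes. Only 7 of the 16 passed a mean of 1 FPKM, and *Krt6a* was among the higher genes that did not.

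Endothelial genes rose mainly between day 3 and day 5. Of the 18 genes listed, 2, 4, 11 and 12 were higher at days 1, 3, 5 and 7, and 7 were held from day 5. At the same days 1, 2, 1 and 0 members were lower. *Flt1* measured 7.08, 1.03, 1.71, 2.51 and 12.8 FPKM and was lower at days 1, 3 and 5. *Flt4* measured 8.80, 5.39, 3.12, 3.95 and 6.31 FPKM and was lower at day 3. The list median was 0.01, 0.28, 1.56 and 1.55. *Sox18*, a factor of vessel and lymphatic fate, was early, with 5.39, 42.8, 24.9, 46.2 and 36 FPKM. *Cdh5* (VE-cadherin) measured 0.499, 0.693, 1.33, 8.91 and 12.6 FPKM and *Pecam1* (CD31) measured 0.0863, 0.0899, 0.917, 3.68 and 10.9 FPKM. *Cldn5*, the claudin of endothelial junctions, was listed at 0 at days 0 and 1 and measured 6.30, 23.7 and 31.2 FPKM at days 3, 5 and 7. *Ramp2*, a co-receptor of adrenomedullin, measured 4.81 FPKM at day 5 and 25.8 FPKM at day 7. *Plvap*, of fenestrated vessels, measured 47.3, 104, 23.7, 28.8 and 30.4 FPKM and was higher at day 1 alone. The factors *Erg* and *Fli1* stayed at or under 1.23 FPKM in all libraries.

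Of 11 blood genes, 5 were higher at day 7, beside 15.0% of all genes, and only 3 of the 11 passed a mean of 1 FPKM. *Gata2*, of stem and progenitor cells, measured 9.97, 39, 35.1, 49.4 and 31.1 FPKM, and *Lmo2*, a partner of *Tal1*, measured 0.331, 16.6, 6.51, 14.5 and 10.6 FPKM, both from day 1. *Runx1* measured 1.82, 1.14, 1.6, 6.77 and 5.56 FPKM and was higher from day 5. *Klf1* was listed at 0 in all 5 libraries, *Gata1* was listed at 0 through day 5, and *Ptprc* (CD45) was listed at 0 from day 3. The α-globin copies *Hba-a1* and *Hba-a2*, which are near-identical and can share reads, measured 5.41, 14.4, 8.3 and 5.0 and 4.18, 13.7, 4.44 and 3.1 FPKM at days 0 to 5 and were both listed at 0 at day 7. The embryonic globins *Hba-x* and *Hbb-bh1* were listed at 0 through day 5 and measured 1.17 and 1.15 FPKM at day 7.

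Most primitive endoderm genes rose between day 5 and day 7. Primitive endoderm is the early extra-embryonic lineage that gives rise to visceral and parietal endoderm, and it lays down a basement membrane and takes up material by endocytosis. The list used here includes genes that the paper names for its primitive endoderm-like cells, which it found mainly with BMP4. Among them are *Sox17*, *Pitx1*, *Klf4*, *Gata4*, *Foxa2*, *Pth1r*, *Cited1*, *Dab2* and *Lama1*. A rise of the list by the last day with BMP4 was thus likely from the choice of members and is no independent result. Of 17 genes, 3, 3, 5 and 14 were higher at days 1, 3, 5 and 7. The list median was -0.30, -0.04, 0.09 and 2.91, and in the last step alone 13 members rose and none fell. *Gata4*, a defining factor, measured 2.17, 0.471, 0.481, 1.7 and 20.7 FPKM. *Sox17* was listed at 0 at days 0 and 1 and measured 1.12, 1.36 and 12.6 FPKM at days 3, 5 and 7. *Sox7* was earlier, listed at 0 at day 0 and at 0.428, 0.983, 9.31 and 13.8 FPKM after it. *Foxa2* was listed at 0 at day 0 and measured 1.48, 0.602, 0.590 and 8.29 FPKM later. These 4 factors thus reached their highest level at day 7, and *Sox7* alone had most of it by day 5. *Gata6*, the factor that begins this lineage, measured 5.99, 4.02, 4.42, 4.22 and 7.0 FPKM and was not called at any day.

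Several other members of this list were highest at day 7. *Cited1*, a transcriptional co-activator, measured 5.31, 3.22, 3.99, 5.06 and 74.8 FPKM. *Pitx1*, a homeobox factor, measured 7.82, 4.2, 2.95, 1.71 and 35.3 FPKM. *Dab2*, an endocytic adaptor of the yolk sac endoderm, measured 25.3, 5.87, 3.29, 9.79 and 72.6 FPKM. All 3 measured less at days 1, 3 and 5 than at day 0, and each was highest at day 7. The uptake receptors *Cubn* and *Lrp2* (cubilin and megalin) measured 0.237, 0.0309, 0.788, 3.39 and 29.1 FPKM and 0.89, 0.362, 2.03, 2.06 and 15.9 FPKM, both highest at day 7, and their partner *Amn* (amnionless) measured 2.17, 25.9, 10.3, 11.5 and 42.3 FPKM, with a rise at day 1 that the others did not have. *Lama1*, the laminin chain of the early basement membrane, measured 0.556, 1.56, 3.92, 8.36 and 23.1 FPKM, more in each library than in the one before.

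The median of the basement membrane list dipped and came back. It was -0.33, -0.93, -1.03 and 0.32. Of the 9 members, 3, 4, 5 and 1 were lower at days 1, 3, 5 and 7, and 5 rose between day 5 and day 7. *Col4a1* (type IV collagen) measured 165, 121, 75.9, 79.9 and 207 FPKM and *Nid1* (nidogen) measured 101, 39.5, 31.5, 49 and 126 FPKM, both lower at days 3 and 5 and not called at day 7. *Hspg2* (perlecan) measured 207, 80.2, 73.7, 70.9 and 70.6 FPKM and did not return. *Nid2* measured 35.7, 88.3, 66.2, 58.5 and 61.6 FPKM and was higher at day 1. *Lamc1* measured 48.8, 53.1, 56.2, 61.1 and 83.2 FPKM and was not called. *Sparc*, a matrix protein abundant in both fibroblasts and parietal endoderm, measured 1157, 517, 608, 519 and 805 FPKM.

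Visceral endoderm genes, which code for secreted plasma proteins and lipid carriers, rose from a level near 0. Of the 13 genes listed, 1, 2, 4 and 11 were higher at days 1, 3, 5 and 7, and the list median was 0.00, 0.21, 0.83 and 2.33. *Ttr* (transthyretin) was listed at 0 at day 0 and measured 0.286, 0.292, 9.16 and 52.3 FPKM later. *Trf* (transferrin) measured 0.576, 0.60, 5.36, 10.8 and 19.7 FPKM. *Afp* (α-fetoprotein) was listed at 0 at day 0 and reached 0.838 FPKM at day 5 and 3.70 FPKM at day 7, and *Hnf4a*, the factor of this tissue, was listed at 0 through day 3 and measured 0.223 and 4.03 FPKM. Only 7 of the 13 passed a mean of 1 FPKM, so these are low levels beside those of the fibroblast genes.

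**Figure D4:**
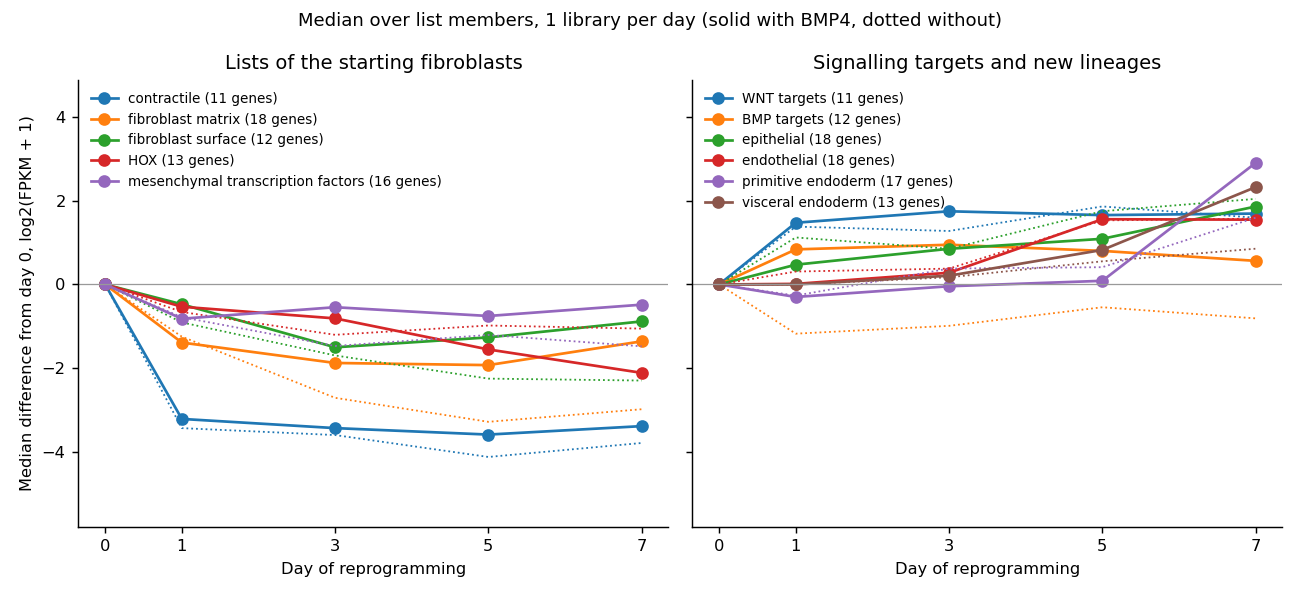
Median difference from day 0 over the members of a list, as log2(FPKM + 1) (y axis), by day (x axis), solid with BMP4 and dotted without, 1 library per day. On the left the contractile list drops to -3.22 at day 1 while the HOX list reaches -2.12 at day 7. On the right the WNT targets are up at day 1 and the primitive endoderm list goes from 0.09 at day 5 to 2.91 at day 7.

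Of 15 trophoblast and placenta genes, 7 were higher at day 7, beside 15.0% of all genes. Only 7 of the 15 passed a mean of 1 FPKM, and *Cdx2* was among the higher genes that did not. The higher genes included *Gata3* with 2.2, 5.08, 10.9, 15.9 and 11.8 FPKM and *Spint1* with 0.142, 0.59, 3.46, 7.08 and 11.8 FPKM. *Cdx2* was listed at 0 at days 0, 1 and 5 and reached 1.31 FPKM at day 7, and *Eomes* measured 1.45, 8.85, 3.65, 1.6 and 1.32 FPKM, highest at day 1. Members that went the other way numbered 2, 2, 2 and 0 at days 1, 3, 5 and 7. *Tead4* measured 8.08, 8.07, 1.97, 0.454 and 3.99 FPKM and was lower at days 3 and 5. *Krt7* was lower at days 1, 3 and 5, and *Hand1* was lower at day 1, where it was listed at 0.

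Of 20 pluripotency genes, 11 were higher at day 7, beside 15.0% of all genes, with a list median of 1.09. Only 8 of the 20 passed a mean of 1 FPKM, and *Nanog* was among the higher genes that did not. *Tdh*, the threonine dehydrogenase of embryonic stem cells, measured 0.179, 39.2, 56.9, 29.2 and 24.4 FPKM and was the largest rise of day 1. *Sox2* measured 5.85, 30.8, 22.9, 17.3 and 14.5 FPKM, highest at day 1. *Lin28a*, which blocks let-7 processing, measured 0.135, 1.26, 8.17, 10.6 and 27 FPKM, more in each library than in the one before. *Nanog* was listed at 0 at day 0 and measured 1.48, 0.232, 0.341 and 1.82 FPKM later, and *Dppa5a* was listed at 0 through day 5 and measured 19.2 FPKM at day 7. *Prdm14* was listed at 0 in all 5 libraries. *Pou5f1*, the gene of OCT4, is not on the list and was added after its values were seen, with 0.931, 3.39, 0.989, 2.66 and 6.08 FPKM with BMP4.

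The order of the lists can be put in days. For every gene called at day 7, a midpoint day was read off straight lines between the libraries, as the day on which its log2 difference first passed 0.5 of the day 7 value. Over all genes lower at day 7 the median midpoint was day 0.948, and over all genes higher at day 7 it was day 1.81. The median midpoint was day 0.513 for 12 matrix genes (10 lower and 2 higher at day 7), day 0.568 for 11 contractile genes and day 0.770 for 11 WNT targets (10 higher and 1 lower). It was day 3.56 for 11 HOX genes, day 3.81 for 12 endothelial genes and day 4.26 for 17 epithelial genes, and it was day 5.16 for 11 visceral and day 5.73 for 14 primitive endoderm genes. Late midpoints were also seen for 8 keratinocyte genes (day 5.39) and for 4 hemoglobin genes (day 5.98), of which 2 rose and 2 fell. A midpoint before day 1 says only that more than that share of the change was present in the day 1 library. As the share is of the day 7 difference, a gene that had partly returned by day 7 gets an earlier midpoint. *Col1a2*, with differences of -2.20, -3.02, -2.56 and -1.33, has its midpoint at day 0.301. The place of the matrix list before the contractile list therefore does not show that matrix genes fell first.

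Most cell cycle genes were not called. The median of 20 genes was 0.00, -0.77, -0.67 and -0.64 on the 4 days, with 1, 6, 3 and 2 members called lower and none higher, beside 7.76%, 8.82%, 8.74% and 8.69% of all genes. Called or not, 19 of the 20 measured less than at day 0 at days 3 and 5 and all 20 at day 7. *Top2a*, a topoisomerase of dividing cells, measured 69.1, 57.1, 28.7, 36.6 and 37.9 FPKM and *Mki67*, the Ki-67 antigen, measured 34.8, 36.1, 18, 29.7 and 22.2 FPKM. *Cdkn2a*, the locus of p16 and p19ARF, measured 13, 18.2, 20.7, 32 and 62.7 FPKM and was higher from day 5, whereas *Cdkn1a* (p21) measured 236, 393, 333, 310.1 and 348 FPKM and was not called. *Trp53* measured 88.7, 77.8, 58.5, 46.1 and 38.8 FPKM, lower at each library than at the one before. *Dnmt3b*, a de novo DNA methyltransferase, measured 0.668, 7.42, 25.6, 21.9 and 10.4 FPKM.

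Imprinted growth genes were among the most abundant of the listed transcripts. *H19* measured 3696, 6394, 6740.5, 7581 and 8463 FPKM, its linked gene *Igf2* measured 1176, 1224, 2029.8, 2187 and 1978 FPKM, and *Mest* measured 31.4, 21.9, 127, 218 and 196 FPKM. Of the 11 genes listed, 3 were higher at day 7 and none was lower, beside 15.0% and 8.69% of all genes. These were *H19*, *Mest* and *Plagl1*, the last with 20.2, 52.2, 67.8, 74.5 and 48.1 FPKM. The *Igf2* difference at that day was 0.75. *Cdkn1c* (p57, a growth inhibitor) measured 382, 1192, 1285, 817 and 472 FPKM and was higher at days 1, 3 and 5.

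Markers of other cell types that a dish of embryonic fibroblasts could hold are given list by list. The summed level of 11 macrophage genes lay between 5.38 and 12.3 FPKM, with *Aif1* listed at 0 in all 5 libraries. Of these, *Fcgr3* was higher from day 5, at 0.326 FPKM at day 0 and 3.23 at day 7. *Lyz2* was lower from day 5, at 4.45 FPKM at day 0 and listed at 0 at day 7. In the skeletal muscle list of 11 genes, *Myf5* and *Myf6* were listed at 0 in all 5. Only the troponins *Tnnt1* and *Tnnt3* were higher at day 7, the latter with 3.05, 17.3, 7.28, 6.5 and 8.43 FPKM. Of 8 adipocyte genes, *Lpl* was higher and *Cebpa* lower at day 7, the latter with 24.8, 6.1, 7.72, 2.65 and 1.73 FPKM. Of all genes, 15.0% were higher and 8.69% lower at that day, so the macrophage, muscle and adipocyte counts were near this background. Of 11 neural genes, 4 were higher at day 7 (beside 15.0% of all genes), among them *Tubb3* with 2.73, 1.42, 18.2, 25.1 and 10.8 FPKM and *Nefm* with 0.624, 4.33, 6.3, 12.9 and 10.5 FPKM. The part of such cells in the results was not tested.

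Outside the lists, the named genes are the 4 largest rises and falls of each comparison, ranked over genes with a mean of at least 5 FPKM. Of the 4 largest rises from day 0 at day 7, *Iapp*, *Slpi* and *Pyy* code for secreted proteins. *Iapp* (amylin, a peptide of islet beta cells) was listed at 0 at day 0 and measured 2.01, 12.8, 127 and 194 FPKM at days 1, 3, 5 and 7. *Pyy* (peptide YY, a gut hormone) was listed at 0 at day 0 and measured 4.16, 6.68, 83.8 and 142 FPKM. These 2 led the rises from day 0 at day 5, and *Iapp* led at day 7 too. *Slpi*, a leukocyte protease inhibitor, was listed at 0 at days 0 and 1 and measured 0.407, 11.2 and 143 FPKM later. All 3 were highest at day 7. *Clu* (clusterin, a secreted chaperone) measured 29.4, 21.6, 203, 1230.2 and 2555 FPKM and reached the highest level among the genes named by rank. *S100a9* was listed at 0 through day 3 and measured 17.3 and 68.3 FPKM at days 5 and 7.

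Other named genes mark single steps. At day 1, next to *Tdh*, *Stra6*, the receptor for retinol-binding protein, measured 0.16, 25.4, 21.4, 29.8 and 22.6 FPKM and *Tesc* (tescalcin) measured 1.3, 43.1, 54.7, 59.6 and 49.7 FPKM, and both kept their level. Between days 1 and 3, *Entpd3*, a cell surface nucleotidase, went from 1.32 to 22.6 FPKM. Between days 5 and 7, *Igfbp1*, a binding protein of insulin-like growth factors, went from a value listed at 0 to 68.6 FPKM. *Pcdh8*, a protocadherin, measured 51, 18.9, 20.1, 11.4 and 0.701 FPKM and was the largest fall of that step. Some genes peaked at day 1, with *Krt23* at 0.436, 39.3, 1.16, 2.72 and 2.96 FPKM and *Cyp2s1*, a cytochrome P450, at 8.71, 80.9, 35.8, 17.5 and 10.6 FPKM. *Crybb1*, a lens crystallin gene listed at 0 at day 0, had its highest levels at days 3 and 5, with 49.9 and 44 FPKM, and measured 14 FPKM at day 7. *Adm* (adrenomedullin) had the deepest dip at day 1, with 44.7, 0.76, 1.29, 4.81 and 16 FPKM, and *Loxl2*, a relative of *Lox*, measured 68.2, 7.86, 16.5, 26.4 and 49.1 FPKM and was not called at day 7.

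Some named genes carry a limit of their own. The short noncoding RNAs AF357359 and Bc1 moved up and down between neighbouring libraries and were listed at 0 at day 3 and at day 5. The ribosomal gene *Rps28* measured 73.8, 174, 478, 55.6 and 91.3 FPKM without an order in time, and its short transcript has many processed copies. *Apoc2* and the readthrough gene *Apoc4-apoc2* overlap and cannot be counted apart. Genes listed at 0 in 1 library and at 5 FPKM or more in the other 4 numbered 27 at day 0 and between 3 and 8 at the later days.

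Switches from near absence to a clear level were counted too, with limits set after the values had been seen. From under 1 FPKM at day 0, 400 genes reached at least 5 FPKM at day 7, of which 57 were there and stayed from day 1, 76 from day 3, 90 from day 5 and 177 reached it at day 7, for the first time or again. In the other direction 122 genes went from at least 5 to under 1 FPKM, and 24 were there and stayed from day 1, 19 from day 3, 25 from day 5 and 54 at day 7, for the first time or again. Symbols of microRNAs and other small RNAs, whose FPKM is unsure, made up 59 of the 400 (14 of the 57 from day 1) and 45 of the 122. At day 7 without BMP4, 169 of the 400 were at or above 5 FPKM and 60 of the 122 were under 1 FPKM.

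The same days without BMP4 give the setting of these courses. The contractile list had a median of -3.44 at day 1 without BMP4, beside -3.22 with it, and *Acta2* measured 23.8, 5.37, 3.22 and 7.66 FPKM at days 1, 3, 5 and 7. The matrix list was lower than with BMP4 at the later days, with medians of -3.29 at day 5 and -2.99 at day 7, where it was -1.93 and -1.36 with BMP4. *Col1a1* measured 72.7, 19.4, 12.1 and 20.2 FPKM without BMP4, so that the return of this gene was seen in the BMP4 course alone. The WNT targets had medians of 1.39 at day 1 and 1.60 at day 7, close to those with BMP4, but *Dkk1* measured 2.03, 2.31, 1.82 and 2.89 FPKM and *Sp5* measured 18.7, 45.2, 46.7 and 44.5 FPKM. The endothelial list rose alike in both courses. Its medians at days 5 and 7 were 1.53 and 1.58 without BMP4, beside 1.56 and 1.55 with it, and 11 and 12 of 18 were higher in each course.

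Several endoderm and keratin genes measured less at day 7 without BMP4. At day 7 the primitive endoderm list had a median of 1.60 without BMP4 and the visceral endoderm list 0.86. For the primitive endoderm list a higher level with BMP4 was likely from the choice of members, as described above. At days 3 and 5 the primitive endoderm median was higher without BMP4, at 0.38 and 0.41, beside -0.04 and 0.09 with it. *Gata4* measured 10.3 FPKM at day 7 without BMP4, *Cited1* 5.52, *Cldn6* 17.3 and *Ttr* 1.56 FPKM. The epithelial list, to which *Cldn6* belongs, had a median of 2.05 at day 7 without BMP4, beside 1.87 with it. Its members went both ways, with *Epcam* at 40.1 FPKM beside 18.0 and *Krt8* at 8.02 FPKM beside 75.6. *Krt5* was listed at 0 at days 5 and 7 without BMP4, and *Iapp*, *Slpi* and *Clu* measured 1.09, 0.435 and 46.8 FPKM at day 7. *Lama1* did not share this, with 30.1 FPKM at day 7 without BMP4 beside 23.1 FPKM with it, nor did *Foxa2*, with 10.8 beside 8.29 FPKM, *Gata6*, with 12.1 beside 7.0 FPKM, *Klf4*, with 25.4 beside 16.7 FPKM, or *Apoa2*, with 4.88 beside 1.499 FPKM. Pluripotency genes took the other course. Their list median without BMP4 was 0.00, 1.72, 4.05 and 4.58, all 20 were higher at day 7, and *Nanog* measured 2.22, 13.1, 40.8 and 60.5 FPKM. HOX genes had a median of -1.06 at day 7 without BMP4, with 7 of 13 lower, beside 11 of 13 with it. At day 3 their order was the reverse, with a median of -1.21 and 8 lower without BMP4, beside -0.81 and 5 lower with it. With 1 library per arm and day, none of these differences between the courses was tested.

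**Figure D5:**
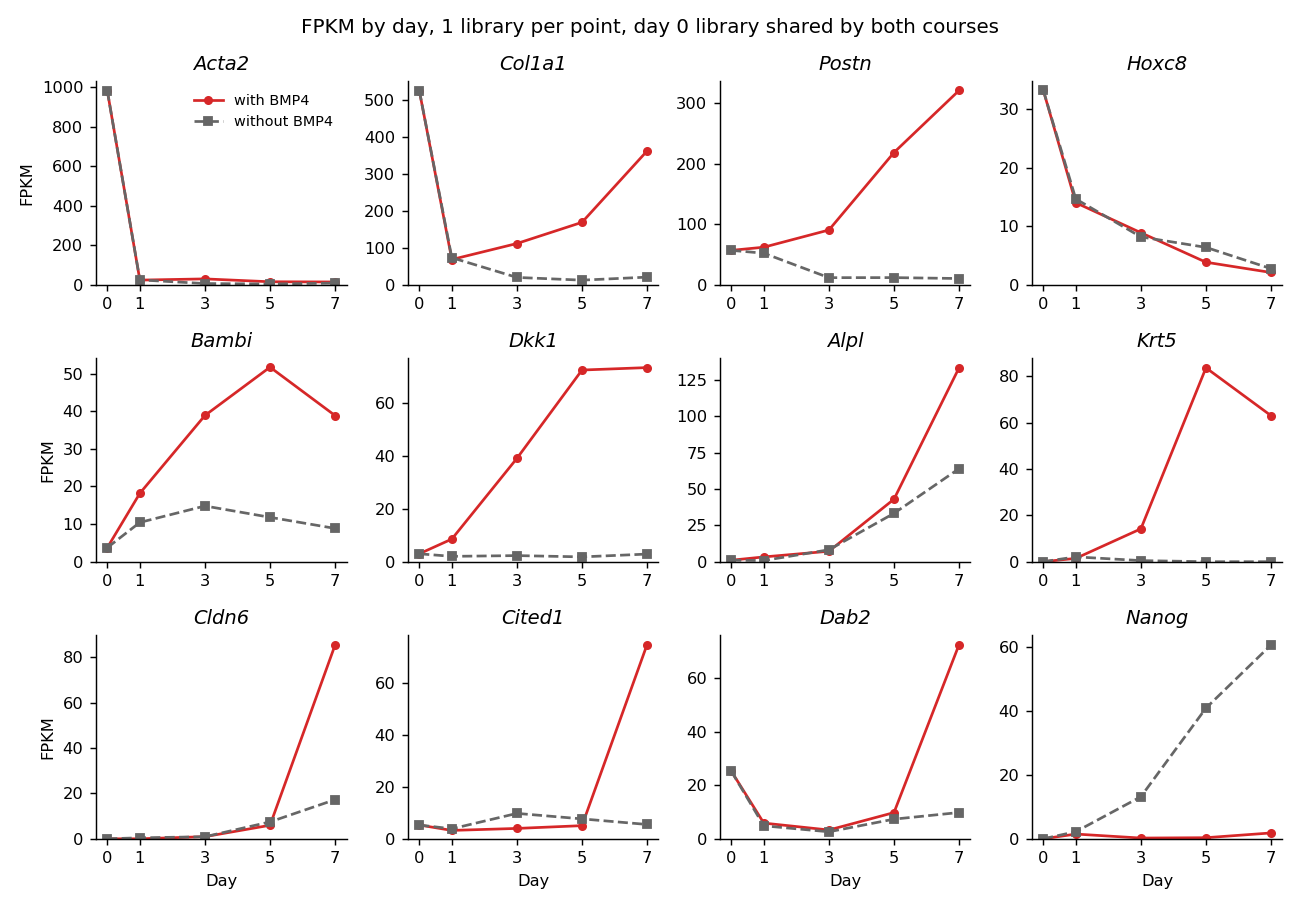
FPKM (y axis, linear, own scale per gene) of 12 genes by day (x axis) with BMP4 (red circles) and without (grey squares), 1 library per point, with the day 0 library shared. *Acta2* falls at day 1 in both, *Col1a1* returns to 361 FPKM with BMP4 and ends at 20.2 FPKM without, and *Nanog* reaches 60.5 FPKM without BMP4 alone.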

How the data were processed

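Reads of mRNA libraries were handled by the authors, who per the labels and the study's methods used Trim Galore 0.6.4, HISAT2 2.2.1 with mm10 and StringTie 2.2.1, and deposited FPKM values per gene. FPKM holds no read count, so depth per sample is unknown, and no interval and no count test could be had. Of the columns of the table, 8 belong to samples of other experiments and were not used. The members and the 30 gene lists were chosen with earlier results of these data known, so they support nothing by themselves. Differences of log2(FPKM + 1) were computed with Python 3 (pandas, numpy), with a call at 1 and a mean of at least 1 FPKM for counts over all genes. List counts include every measured member. Genes named outside the lists are the 4 largest rises and 4 largest falls per comparison and the 4 largest peaks and dips at days 1, 3 and 5, at a mean of at least 5 FPKM, without microRNAs, small nucleolar and other small RNAs of standard names and symbols that start with Gm and a digit or end in Rik, so other unnamed models could remain. Not every one of them is described, and *Actb*, *Tbp*, *Gapdh* and *Hprt* were added by choice. The steps were tested on simulated data. The mitochondrial list was not analysed here, as none of its genes matched a symbol. Promoters and positions are from RefSeq on GRCm38.p6, the assembly of mm10, and 32501 of 35976 symbols matched. The alternatives were a pseudocount of 0.1, scaling by the median ratio, other limits on mean FPKM, and other definitions of a held change.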

Additional observations from a re-analysis of the deposited data

Results flagged for a closer look

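Some list medians lay on opposite sides of day 0 in the courses with and without BMP4, at least 1 apart on the log2 scale. These differences between the courses were not tested, since each day of each course is 1 library. The BMP targets had medians of 0.84, 0.95, 0.80 and 0.56 at days 1, 3, 5 and 7 with BMP4 and of -1.18, -0.99, -0.55 and -0.81 without it. *Smad6* measured 58.0 FPKM at day 1 with BMP4 and 9.96 FPKM without, beside 38.3 FPKM at day 0. The cell cycle list had medians of -0.67 and -0.64 at days 5 and 7 with BMP4 and of 0.74 and 0.55 without. The imprinted list had medians of 0.77 and 0.69 at days 3 and 5 with BMP4 and of -0.42 and -0.44 without.

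List members that had risen in one course and fallen in the other by day 7 were *Postn* (2.48 with BMP4 and -2.38 without), *Pitx1* (2.04 and -1.25), *Dab2* (1.49 and -1.28) and *Gata2* (1.55 and -1.28). The α-globin copies went the other way, with differences of -2.68 and 1.44 for *Hba-a1* and -2.37 and 1.11 for *Hba-a2*, where the negative values come from a library in which both are listed at 0. Their reads can be shared between the copies. Of the 13452 counted genes, 30 were higher with BMP4 and lower without at day 7, and 32 the reverse. The filter behind this count uses day 0 and the BMP4 libraries alone, so genes high only without BMP4 can be missing from it. None of these was tested.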

How the results depend on the processing

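Scaling the libraries by their median ratio moved none of the counts, list medians and gene differences past the limits used here (1.5 times, or the call at 1). A pseudocount of 0.1, which widens differences of low genes, gave 1473 rises and 912 falls from day 1 to day 3, 954 and 674 from day 3 to day 5, 736 falls from day 5 to day 7 and 932 rises held from day 1. With it the medians were -1.01 at day 1 for mesenchymal transcription factors, 2.89 at day 5 for WNT targets, 1.36, 2.38 and 4.87 at days 3, 5 and 7 for visceral endoderm, 2.51 and 2.83 at days 5 and 7 for endothelial, 1.71, 1.93, 2.82 and 4.41 at days 1, 3, 5 and 7 for epithelial, and 1.79 and 2.87 at days 5 and 7 for pluripotency genes. Another 147 medians and differences, of other lists and single genes, also moved with this pseudocount. Without a filter on mean FPKM, 575 genes fell from day 3 to day 5, 996 rose from day 5 to day 7 and 1104 rises were held from day 7. With a mean of at least 5 FPKM fewer genes were counted, and the rises and falls from day 0 were 724 and 571 at day 1, 905 and 684 at day 3, 898 and 661 at day 5, and 1032 and 655 at day 7. The steps then had 413 and 302, 219 and 139, and 265 and 171, rises held from days 3, 5 and 7 numbered 198, 153 and 306, and falls held from days 1, 3, 5 and 7 numbered 232, 122, 90 and 211. Over members with a mean of at least 1 FPKM, a choice that favors members that are high in a later library, the medians were 1.27 at day 5 for visceral endoderm, 2.53 at day 7 for endothelial, 1.37, 1.45, 2.25 and 4.16 at days 1, 3, 5 and 7 for epithelial, and 1.46 and 1.25 at days 3 and 5 for pluripotency genes. Another 15 results also moved with this choice. Leaving out the day 5 library kept the 6 held counts that it leaves within 1.5 times, and not asking for a call at the days between did so for all 8. No called difference changed sign under any of these alternatives. No paired analysis was made, as each day of each course is 1 library and the labels of these libraries give no replicate number. The number of reads is unknown, so levels under 1 FPKM are uncertain.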

Other observations

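Genes with a course of their own are best seen in the ranked peaks and dips. *Ppp1r1b*, an inhibitor of protein phosphatase, measured 1.27, 41.4, 95.4, 44.5 and 17.6 FPKM with BMP4 and 51.2, 103, 30.8 and 14.4 FPKM at days 1, 3, 5 and 7 without, a peak at day 3 in both courses. *Adam11*, a membrane protein of the disintegrin family, measured 1.94, 12.4, 17.4, 4.88 and 1.89 FPKM with BMP4 and was much higher without it, with 50.9, 144, 53.2 and 41.7 FPKM. *Itih3*, an inhibitor chain that binds hyaluronan, measured 0.949, 18.2, 8.86, 4.72 and 1.21 FPKM and was back near its first level at day 7. *Amh* (anti-Müllerian hormone, a relative of BMPs) measured 3.46, 7.39, 5.15, 16.4 and 3.62 FPKM with BMP4 and 63, 56.7, 18.5 and 5.3 FPKM without. *Pdpn* (podoplanin) measured 27.2, 7.23, 7.96, 4.94 and 38.3 FPKM with BMP4, a dip through day 5 with its highest level at day 7, and 6.01, 5.07, 5.65 and 12.2 FPKM without. *Hspb2*, a small heat shock protein, measured 12.8, 13.7, 5.95, 1.66 and 12.5 FPKM. Each value is 1 library, and no explanation of these courses was tested.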
